A study of Homo sapiens with 6 samples.

Results

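The levels of 10 genes that encode amino acid transporters of the cell surface were followed: SLC3A2, SLC7A1, SLC7A5, SLC7A11, SLC38A1, SLC38A2, SLC1A4, SLC1A5, SLC6A9 and SLC43A1. They were taken by name, and every probe set annotated to 1 of them and to no other gene was kept. This gave 41 of 49293 probe sets and 10 of the 18132 genes measured. Messenger RNA had been measured on 1-colour arrays in U87, a human glioblastoma cell line in long use, in 3 samples that overexpressed the microRNA miR-151a and in 3 that overexpressed a negative control microRNA, miR-NC. The sources used here do not give how the microRNAs were delivered, for how long, or which arm of miR-151a was raised. Both groups are of 1 cell line with no drug named. Nothing in the labels says that replicates came from separate cultures, so the p-values reflect a spread between samples that may be only technical. The 10 genes were chosen with the difference between these same groups known, so their differences are a description. Where the text says how many of their probe sets were past a threshold of the fit, this sorts them by size and spread and is no test of them.

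Amino acids do not cross the plasma membrane on their own and are carried by several transporter families. SLC3A2 encodes the heavy chain 4F2hc, a single-pass protein that brings its partner light chains to the cell surface. With SLC7A5 it forms LAT1, which exchanges large neutral amino acids such as leucine, and with SLC7A11 it forms system xc-, which takes up cystine, a source of cysteine for glutathione, in exchange for glutamate. SLC1A4 and SLC1A5 are exchangers of small neutral amino acids, with glutamine carried by SLC1A5. SLC38A1 and SLC38A2 take up glutamine, alanine and related amino acids together with sodium. SLC7A1 carries arginine and lysine, SLC6A9 carries glycine, and SLC43A1 is a carrier of large neutral amino acids that needs no heavy chain. In many cell types the transcription factor ATF4 raises several of these genes through a composite C/EBP-ATF element when amino acids are short, and NFE2L2 raises SLC7A11 under oxidative stress.

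The 6 arrays had similar scales, with median probe set intensities from 57.1 to 58.6 and lower quartiles from 14.9 to 15.6. The number of arrays limits the precision, and the median SD within a group was 0.080 on the log2 scale. The 9 genes listed as glioma line markers, VIM, CD44 and FN1 among them, were bright. Their median lay at the 99.2 percentile of all genes and the dimmest lay at 60.1. Of these 0 rose and 1 fell in limma, NES, which encodes the filament protein nestin, at -0.31 on the log2 scale (adjusted p = 0.0079). Of 12 markers of other cell types, 0 rose and 0 fell in limma. Over all genes 7.27% rose and 8.11% fell, so for lists this short nothing is read from these counts of markers. The median of the 12 lay at the 35.8 percentile, and the brightest was CD68 at the 91.7 percentile. The glial genes GFAP and AQP4 had been placed in this second list and lay at the 45.8 and 18.2 percentiles. These levels do not by themselves settle the identity of the cells. Control probe sets at both ends of a transcript gave a log2 ratio, 3′ over 5′, between 0.27 and 0.30 with miR-151a and between 0.37 and 0.43 with miR-NC for beta-actin. The labelling protocol and the probe set names do not settle which way such a ratio would move with RNA quality. For GAPDH it ran from 0.045 to 0.052 with miR-151a and from 0.029 to 0.049 with miR-NC. For 18S ribosomal RNA it ran from 0.35 to 0.41 with miR-151a and from -0.54 to -0.46 with miR-NC. The actin and 18S ratios thus separate the groups, and their part in the results that follow was not tested.

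RefSeq start-site windows of GRCh38.p14, each 250 bases before to 50 after a start, were matched for 9 of the 10 genes, all but SLC7A11, with 16 windows in all. The composite C/EBP-ATF element was searched on both strands as TGATGNAAN. It was found in windows of 5 of the 9 genes (5 of 16 windows), against 3.61% of all 35116 windows and 4.45% of all 27305 genes with a window. These 5 matches are shown because this is the element through which ATF4 is known to act. They did not follow the levels by brightest probe set. SLC7A5, at a log2 fold change of 1.00, had no match, while SLC7A1 at 0.03 and SLC38A1 at 0.18 had one. Whether the element had a part in any difference was not tested. Capitals mark the match, and each line is 30 bases read 5′ to 3′ along the gene's strand.
SLC3A2, chr11:62881719-62881748, plus strand: gtaatgtgcaggactcCTTACATCAgctcc
SLC1A4, chr2:64989381-64989410, plus strand: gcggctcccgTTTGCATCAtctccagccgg
SLC1A5, chr19:46784892-46784921, minus strand: aggaagtggcTGATGCAAGctgtccagggt
SLC38A1, chr12:46266501-46266530, minus strand: cagacccgaaTGATGAAAAgggatcagcta
SLC7A1, chr13:29595662-29595691, minus strand: ggcgcactgcTGATGAAACctggcgccgga
The matches in SLC3A2 and SLC1A4 read on the opposite strand. The narrower form TGATGCAA, contained in the same matches, was found in SLC1A4 and SLC1A5, against 0.866% of all windows and 1.08% of all genes with a window. The match in SLC1A5 lies from -97 to -89 of 1 of its 3 starts. In SLC3A2 it lies within the transcribed part, from 37 to 45 counted from the start as 1.

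The core of the antioxidant response element, searched as TGACNNNGC on both strands, was found in windows of SLC3A2, SLC7A1, SLC7A5 and SLC1A5. These are 4 of 9 genes and 4 of 16 windows, against 16.1% of all genes with a window and 13.3% of all windows. The match is shown for the 2 genes of this group whose levels were at least 2-fold higher by their brightest probe sets. The other probe set of SLC7A5 was 1.19-fold higher. This choice used the contrast itself, so nothing is read from it. SLC7A1 and SLC1A5, with log2 fold changes of 0.03 and 0.21 in their brightest probe sets, had a match as well.
SLC3A2, chr11:62881652-62881681, plus strand: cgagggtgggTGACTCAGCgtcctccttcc
SLC7A5, chr16:87869490-87869519, minus strand: gcggggttccTGACGCAGCtgcgggcggcg
The E-box CACGTG, which reads the same on both strands, was found in windows of SLC7A5, SLC1A5 and SLC43A1. Over all, 7.26% of windows and 8.77% of genes with a window had it. A match is a description of the letters in these windows.

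By their brightest probe sets, transcripts of the heavy chain and of both of its partners among the 10 genes were 2.01- to 2.79-fold higher with miR-151a. No probe set of the other 7 transporters was more than 1.39-fold higher. Of the 41 probe sets, limma placed 20 past the threshold, a Benjamini-Hochberg adjusted p of 0.05, as higher and 0 as lower. Over all probe sets 6.81% were past it as higher and 7.27% as lower. All probe sets were past the threshold for SLC3A2 (7), SLC7A5 (2), SLC7A11 (3) and SLC1A5 (3). Part of them were for SLC1A4 (3 of 6), SLC38A1 (1 of 5) and SLC6A9 (1 of 7), and none of the 4 of SLC7A1, 3 of SLC38A2 and 1 of SLC43A1. The median log2 fold change of the 41 was 0.21, against -0.01 over all probe sets, and 37 had a positive difference. The groups did not overlap for 24 of them, all higher with miR-151a, where 15.3% of all probe sets were higher without overlap. With 1 probe set per gene, the brightest, 5 of 10 genes were past the threshold as higher, against 7.27% of all genes. Since the genes were chosen on this contrast, nothing is read from these counts.

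**Figure D1:**
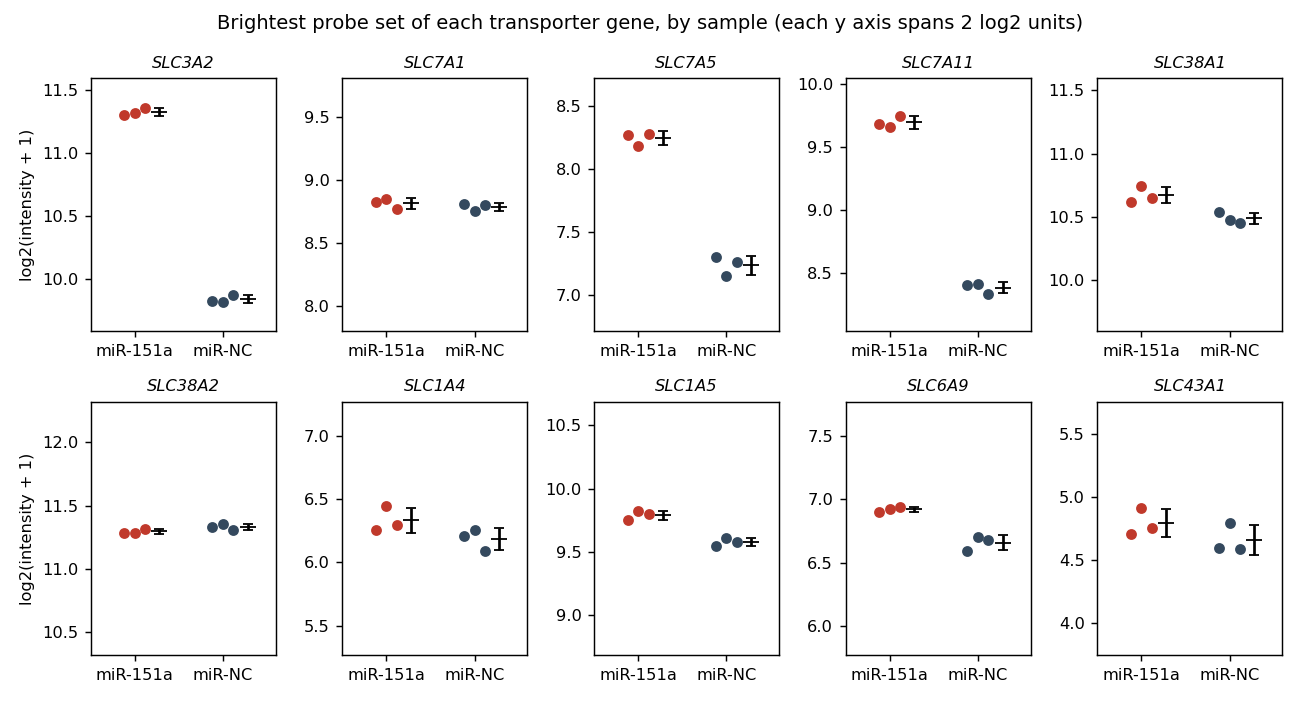
Levels of the brightest probe set of each of the 10 genes as log2(intensity + 1) on the y axis, with 1 point per sample, miR-151a in red on the left and miR-NC in dark blue on the right, and bars for the mean ± SD (n = 3). SLC3A2, SLC7A5 and SLC7A11 are separated by 1.00 to 1.48 log2 units, while the points of SLC7A1, SLC38A2, SLC1A4 and SLC43A1 overlap.

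SLC3A2, the heavy chain, had the widest separation. The brightest of its 7 probe sets had intensities of 2518, 2544 and 2622 with miR-151a, against 910, 903 and 939 with miR-NC. All 3 samples with miR-151a lay far above all 3 with miR-NC, and the samples of each group lay close together. This is a log2 fold change of 1.48 (SE 0.05), or 2.79-fold. The other 6 probe sets had log2 fold changes from 1.33 to 1.58, each without overlap between the groups. The highest belonged to the dimmest probe set, with an intensity of 1809 ± 36.6 with miR-151a and 606 ± 9.16 with miR-NC (SD, n = 3 each). The 7 probe sets of SLC3A2 thus gave nearly the same difference, and 3 of them carry the suffix x_at, which marks probes that may also match other transcripts. All 7 were read from the same 6 samples, so they are not separate replicates. By the log2 fold change of its brightest probe set SLC3A2 was 23rd of 18132 genes. In RNA from whole cultures, a change in every cell and a change in a part of the cells cannot be told apart.

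SLC7A11, the cystine light chain, was the next highest. Its brightest probe set had intensities of 818, 804 and 858 with miR-151a, against 339, 340 and 322 with miR-NC, a log2 fold change of 1.31 with a standard error of 0.05. A second probe set had 356, 372 and 378 with miR-151a, against 154, 153 and 163 with miR-NC, a log2 fold change of 1.23 with a standard error of 0.05. The dimmest had 369, 310 and 335 with miR-151a, against 152, 183 and 164 with miR-NC, with wider spread and a log2 fold change of 1.02 with a standard error of 0.09. In all 3 probe sets every sample with miR-151a was above every sample with miR-NC, and the gene was 34th of 18132 by log2 fold change. With a pseudocount of 32 the values were 1.23, 1.09 and 0.90.

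SLC7A5, the LAT1 light chain, gave different sizes in its 2 probe sets. The brighter had intensities of 307, 289 and 309 with miR-151a, against 157, 141 and 152 with miR-NC, a log2 fold change of 1.00 with a standard error of 0.06. The dimmer had 90.8, 82.2 and 96.8 with miR-151a, against 72.4, 77.1 and 75.6 with miR-NC, a log2 fold change of 0.25 with a standard error of 0.07. Both placed all 3 samples with miR-151a above the 3 with miR-NC, but their log2 fold changes lay 0.75 apart. The dimmer one carries the suffix s_at, given to probe sets that match more than 1 transcript. It is 1 of 6 with this suffix among the 41. The others are the brightest of SLC7A11 and of SLC1A4, the 2 brightest of SLC38A1 and 1 of SLC7A1. The mean over both probe sets of SLC7A5 was 0.63 with a standard error of 0.05. Without a single sample the value of the dimmer one ran from 0.20 to 0.32, and it was past the threshold only without miR-151a replicate 2.

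**Figure D2:**
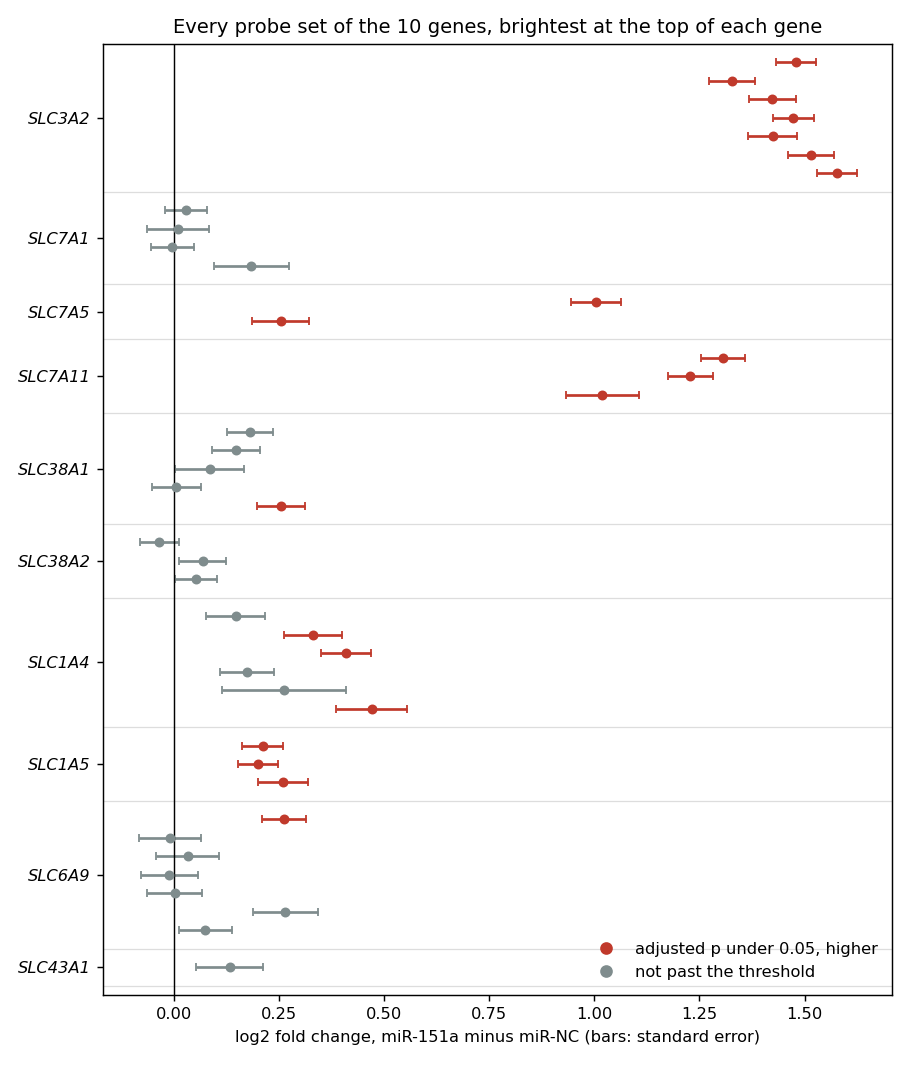
Log2 fold change of each of the 41 probe sets, miR-151a minus miR-NC, on the x axis with bars for the standard error, grouped by gene with the brightest probe set uppermost. Red points are past the adjusted p threshold of 0.05 and grey ones are not. The 7 probe sets of SLC3A2 lie together between 1.33 and 1.58, while those of SLC7A5 are split between 0.25 and 1.00.

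The neutral amino acid exchangers were higher by smaller amounts. SLC1A5, the glutamine exchanger, had intensities of 860, 904 and 888 with miR-151a in its brightest probe set, against 746, 779 and 764 with miR-NC. That probe set carries the suffix x_at. The groups did not overlap in any of its 3 probe sets, and the log2 fold changes were 0.21, 0.20 and 0.26 with standard errors of 0.05, 0.05 and 0.06. They stayed between 0.18 and 0.30 under every alternative run. Leaving out 1 sample, all 3 were past the threshold only without miR-151a replicate 1, where they were 0.23, 0.22 and 0.30.

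SLC1A4, its close relative, which carries alanine, serine and cysteine, was dim, with its 6 probe sets between the 44.0 and 54.8 percentiles of all probe sets. Log2 fold changes ran from 0.15 to 0.47. The largest came from the dimmest probe set, with intensities of 51.7, 52.6 and 42.2 with miR-151a, against 34.0, 35.6 and 34.8 with miR-NC, and there the groups did not overlap. The brightest had 75.5, 86.2 and 77.7 with miR-151a, against 73.0, 75.6 and 67.1 with miR-NC, which overlap by less than 1 intensity unit. All 6 differences were positive, the groups did not overlap in 4, and the mean over probe sets was 0.30 with a standard error of 0.05. With a pseudocount of 32 the 3 called probe sets of SLC1A4 had log2 fold changes from 0.23 to 0.27. One of them, at 0.33, was not past the threshold without miR-151a replicate 2 or 3 or without miR-NC replicate 2, where it was 0.29, 0.31 and 0.29.

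Among the sodium-coupled carriers SLC38A1 was slightly higher and SLC38A2 was nearly level. The brightest probe set of SLC38A1 had intensities of 1573, 1711 and 1603 with miR-151a, against 1487, 1423 and 1397 with miR-NC. The groups did not overlap, and in the second probe set the lowest miR-151a sample, at 1507, lay just above the highest miR-NC sample, at 1488. The log2 fold changes of these 2 bright probe sets were 0.18 and 0.15, each with a standard error of 0.06. The 3 dimmer ones gave 0.09, 0.01 and 0.26. Only the last of the 5 was past the threshold, with intensities of 194, 202 and 217 with miR-151a, against 174, 165 and 173 with miR-NC. Leaving out 1 sample, it ran from 0.21 to 0.29 and was past the threshold only without miR-151a replicate 1. A probe set of almost the same brightness read 199, 221 and 222 with miR-151a, against 214, 211 and 213 with miR-NC, with full overlap.

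SLC38A2 is a sodium-coupled carrier like SLC38A1, and the intensities of its brightest probe set were 2498, 2496 and 2546 with miR-151a, against 2574, 2614 and 2533 with miR-NC. The groups overlapped in all 3 of its probe sets. Log2 fold changes were -0.03, 0.07 and 0.05, with standard errors of 0.05, 0.06 and 0.05, and the fit's 95% intervals were -0.14 to 0.07, -0.06 to 0.20 and -0.06 to 0.17. A difference of the size seen for SLC3A2 lies outside these intervals.

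SLC7A1, the arginine and lysine carrier, showed no separation in its brighter probe sets. The brightest had intensities of 453, 461 and 435 with miR-151a, against 447, 430 and 445 with miR-NC, a log2 fold change of 0.03 with a 95% interval from -0.09 to 0.14. The next 2 were at 0.01 and -0.00, and the dimmest, near the lower quartile of the arrays, at 0.19 with a standard error of 0.09.

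SLC6A9, the glycine transporter GLYT1, split by probe set. Its brightest read 118, 120 and 122 with miR-151a, against 95.7, 103 and 101 with miR-NC, without overlap, a log2 fold change of 0.26 with a standard error of 0.05. A dim probe set gave 0.27 with intensities of 20.2, 21.1 and 22.4 with miR-151a, against 16.4, 16.5 and 19.7 with miR-NC. The other 5 lay between -0.01 and 0.08, of which 4 carry the suffix x_at, and their groups overlapped. Averaged over its 7 probe sets SLC6A9 was at 0.09 with a standard error of 0.04, so the value depends on which probe set is taken.

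SLC43A1, the carrier LAT3, had 1 probe set, below the median of the arrays, with intensities of 25.1, 29.2 and 25.99 with miR-151a, against 23.1, 26.8 and 23.0 with miR-NC. The groups overlapped and the log2 fold change was 0.13 with a 95% interval from -0.05 to 0.32. For comparison, 23 background control probe sets had medians from 6.76 to 7.04 across the arrays, and single background probe sets reached 1440, so the background of a dim probe set is not fixed by the median.

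Other amino acid transporters of the cell surface did not share the large differences. Of 35 measured, listed by family, 2 rose and 2 fell, and 31 did not pass, where 7.27% of all genes rose and 8.11% fell. Their median log2 fold change was -0.00 beside -0.01 for all genes. Many of the 35 were dim, down to SLC7A13 at the 3.3 percentile of all genes, so this median rests in part on genes with little signal. With the filter on low values 24 of them were kept, and 3 rose and 3 fell. Of all 14389 genes kept by that filter, 1538 rose and 1824 fell. SLC38A6, a member of the glutamine carrier family, rose to intensities of 608, 613 and 599 with miR-151a, against 477, 467 and 436 with miR-NC, a log2 fold change of 0.40 (limma adjusted p = 0.0020). SLC1A1, a glutamate and cysteine carrier, fell to 182, 202 and 188 with miR-151a, against 257, 245 and 246 with miR-NC, a log2 fold change of -0.39 (limma adjusted p = 0.0033). Both calls held under all 14 alternatives. SLC6A6, the taurine transporter, fell by 0.26 on the log2 scale (limma adjusted p = 0.0083) in its brightest probe set, and with the mean over its 5 probe sets it was at -0.06 (adjusted p = 0.40). SLC7A7 was called at 0.29 with a limma adjusted p of 0.049 from a dim probe set, at 19.0 ± 1.34 with miR-151a and 15.4 ± 1.54 with miR-NC (SD, n = 3 each). With a pseudocount of 32 it was at 0.11 (adjusted p = 0.066). It also did not pass when miR-151a replicate 2 or 3 was left out, or miR-NC replicate 1 or 3 (adjusted p from 0.13 to 0.14, and from 0.025 to 0.14 over the alternatives).

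Of 4 further light chain partners of SLC3A2, 3 did not pass. SLC7A6 was at -0.19, SLC7A8 at -0.00 and SLC7A10 at -0.02, with standard errors of 0.10, 0.08 and 0.07, and the partner that passed was SLC7A7, given above. SLC7A10 was dim, at the 27.8 percentile of all genes. The other heavy chain gene, SLC3A1, was at -0.16 with a dim signal. Among near relatives of the 10 genes, SLC7A2 was at 0.04, SLC7A3 at 0.03, SLC38A3 at -0.03, SLC38A4 at 0.07, SLC38A5 at 0.15, SLC43A2 at 0.06 and SLC6A5 at 0.10. All of these but SLC38A3 were below the median gene level, with SLC7A3 and SLC38A4 at the 9.1 and 8.5 percentiles. For SLC38A4, 1 of 3 probe sets was called lower, at -0.32, and the mean over them was -0.07. The glutamate carriers SLC1A2 and SLC1A3 were at -0.08 and -0.18, and none of these 9 relatives passed by its brightest probe set. For SLC1A3 the adjusted p in limma was 0.065, and it passed as lower without miR-151a replicate 3 (adjusted p = 0.032, in a range from 0.025 to 0.58 over the alternatives).

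**Figure D3:**
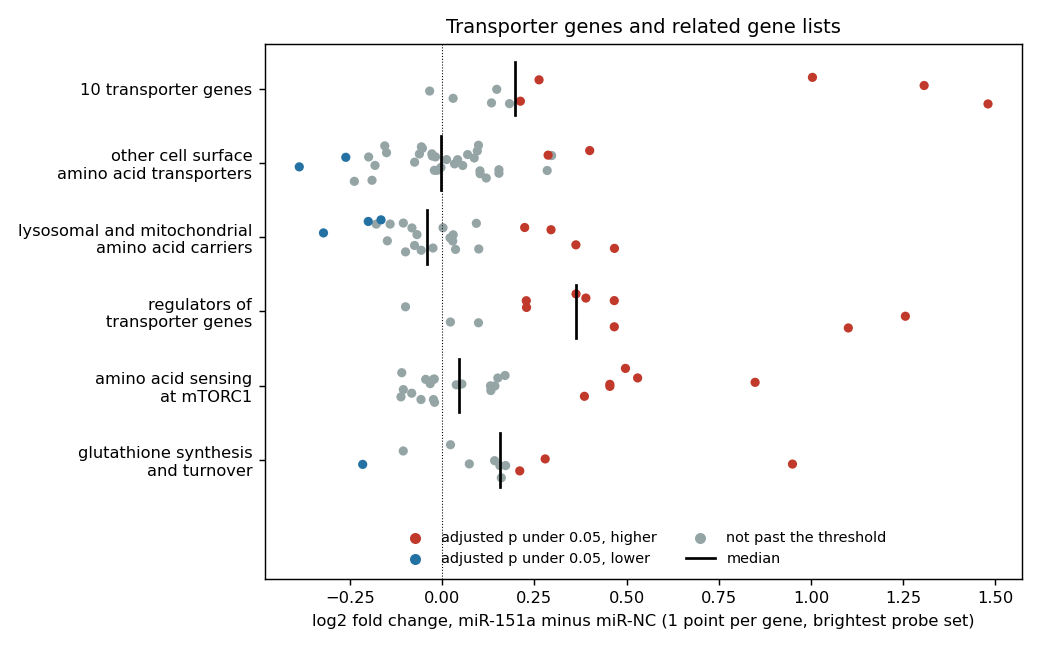
Log2 fold change of single genes, miR-151a minus miR-NC, on the x axis, for the 10 transporter genes and 5 related lists, with 1 point per gene by its brightest probe set and a black bar at the median. Red points rose and blue points fell past the adjusted p threshold of 0.05. The medians are 0.20 for the 10 genes, -0.00 for other surface transporters and 0.36 for the regulators.

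Carriers inside the cell moved in both directions. Of 24 carriers of lysosomes and mitochondria, 4 rose and 3 fell (7.27% of all genes rose and 8.11% fell), and their median was -0.04. CTNS, which exports cystine from lysosomes, rose to 245 ± 15.1 with miR-151a, against 190 ± 6.42 with miR-NC (SD, n = 3 each), a log2 fold change of 0.36 (limma adjusted p = 0.0059), and 6 of its 8 probe sets rose. SLC66A1, a lysosomal carrier of cationic amino acids, was at 0.29, and SLC38A7, a lysosomal glutamine carrier, at 0.22. The mitochondrial glutamate carrier SLC25A18 was at 0.47 on a dim signal and at 0.16 with a pseudocount of 32. SLC25A15, the mitochondrial ornithine carrier, fell to 169 ± 6.85 with miR-151a, against 212 ± 2.39 with miR-NC (SD, n = 3 each), a log2 fold change of -0.32. SLC25A40, a mitochondrial glutathione carrier, was at -0.20 (-0.11 over the mean of its 2 probe sets, adjusted p = 0.11) and SFXN3, of the sideroflexin family, at -0.17. The count of 7 became 3 or 4 with any 1 sample left out. CTNS, SLC25A18 and SLC25A15 passed in each of those fits.

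Of 11 listed regulators of transporter genes, 8 rose and 0 fell in limma, where 7.27% of all genes rose and 8.11% fell, and their median was 0.36. TRIB3, a target and inhibitor of ATF4, rose to intensities of 427, 446 and 430 with miR-151a, against 171, 186 and 187 with miR-NC, a log2 fold change of 1.26 (limma adjusted p = 1.0e-05). DDIT3, the stress factor CHOP, was at 1.10, NFE2L2 at 0.47, CEBPG, a partner of ATF4, at 0.47, and ATF5 at 0.36. NEDD4L, a ubiquitin ligase that removes several transporters from the surface, was at 0.39 in its brightest probe set and at 0.24 over the mean of its 7, of which 4 were called and the lowest was at -0.20. ATF4 itself was at 0.23 (limma adjusted p = 0.014), with intensities of 3191, 3409 and 3330 with miR-151a, against 2798, 2831 and 2843 with miR-NC. ATF4 had only 1 probe set, with the suffix x_at. Its adjusted p was 0.053 and 0.052 without miR-NC replicates 1 and 2, in a range from 2.9e-06 to 0.053 over the alternatives. This list was written with earlier results of these samples known, so its count is no independent evidence.

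Genes that sense amino acids at the growth kinase mTORC1 were higher in part. Of 24 measured, 6 rose and 0 fell in limma, against 7.27% and 8.11% of all genes. Their median was 0.05, and the count was 6 with any 1 sample left out. With a pseudocount of 32, 8 rose and 2 fell. SESN2, the leucine sensor sestrin 2, was at 0.85, the Rag GTPase genes RRAGC, RRAGB and RRAGD at 0.53, 0.50 and 0.39, and FLCN and FNIP1, which form a complex that acts on the Rag GTPases, both at 0.45. RRAGC rose to 1356 ± 39.8 with miR-151a, against 939 ± 25.9 with miR-NC (SD, n = 3 each). With the mean over its 3 probe sets RRAGD was at 0.13 and did not pass (limma adjusted p = 0.10, the highest over the alternatives, with 0.0014 for its brightest).

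Glutathione is made from the cysteine that SLC7A11 helps supply, among other amino acids. Of 11 genes of glutathione synthesis and turnover, 3 rose and 1 fell, beside 7.27% and 8.11% of all genes, and the median was 0.16. CHAC1, which degrades glutathione, rose to 307, 326 and 302 with miR-151a, against 164, 149 and 170 with miR-NC, a log2 fold change of 0.95 (limma adjusted p = 9.6e-05). GCLM, the modifier subunit of the first enzyme of glutathione synthesis, was at 0.28, and GSS, the second enzyme, at 0.21. GCLC, the other subunit of the first enzyme, was at 0.16 in its brightest probe set and did not pass (limma adjusted p = 0.054). However, 2 of its 4 probe sets were called higher. CHAC2, a relative of CHAC1, fell by 0.22 on the log2 scale. The count of 4 became 2 without miR-NC replicate 1 or 2, with GCLM not past the threshold without miR-NC replicate 2 and CHAC2 without miR-NC replicate 1. GSS did not pass without miR-151a replicate 3 or any miR-NC replicate (limma adjusted p from 0.057 to 0.064, in a range from 0.00011 to 0.064 over the alternatives). With the mean over probe sets 5 genes of the list rose and 1 fell. By that measure GCLC was at 0.33 (limma adjusted p = 0.0014) and GCLM at 0.10 (adjusted p = 0.12).

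The other solute carriers, 305 genes whose symbols begin with SLC, 2 of them antisense RNAs, followed the background: 21 rose and 25 fell, 15.1% in all beside 15.4% of all genes, with a median of -0.01. The count of 46 became 30 and 28 with miR-151a replicate 1 or 3 left out, and 29, 26 and 23 with miR-NC replicate 1, 2 or 3 left out. Among those above the median gene level the potassium-chloride cotransporter gene SLC12A7 was at 2.17 and the glucose transporter family member SLC2A6 at 1.00. With the mean over probe sets they were at 1.12 and 0.59, since the other probe set of SLC12A7 was at 0.07 and the lowest of 4 for SLC2A6 at -0.07. The magnesium transporter gene SLC41A2 was at 0.80. SLC2A1, the main glucose transporter of many cell types, was at -0.40 (limma adjusted p = 0.010), with 298 ± 23.1 with miR-151a and 394 ± 26.5 with miR-NC (SD, n = 3 each). SLC29A1, a nucleoside transporter, was at -0.40 in its brightest probe set and at -0.14 over the mean of its 3 probe sets.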

How the data were processed

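RNA of 6 U87 samples was measured on biotin-labelled arrays. The authors deposited 1 linear intensity per probe set and sample, with similar quartiles in all samples; MAS5 is named, with no version or role, per the submitters' processing notes, and background correction and summarization are not described in the labels. Groups and replicate numbers came from titles. Leaving out 102 control probe sets, 49293 were tested: 44988 named 1 gene, 1832 several and 2473 none, with symbols updated through RefSeq for 44961.

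Values were taken as log2(intensity + 1) and fitted by group in limma 3.58.1 (R 4.3.3). P-values were adjusted by Benjamini-Hochberg, at a threshold of 0.05, across all probe sets tested, or across 18132 genes when each was represented by its brightest probe set. The fit was tested on simulated data. Fold changes on this scale understate changes of dim genes. An exact permutation test of 3 against 3 cannot go below p = 0.1. Figures used matplotlib 3.10.9.

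The 10 genes, the lists and the alternatives were chosen with earlier results of these data known. Of the lists, every gene past the threshold was eligible to be named, or the 6 of smallest p in a direction, besides fixed relatives of the 10 genes and ATF4. GCLC was named outside this rule, as the other subunit of the enzyme of GCLM. Of the other solute carriers, the 6 largest rises and falls above the median gene level were eligible, and the text gives examples. LAMTOR1 and GGT1 were not measured.

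Alternatives were a pseudocount of 32, quantile normalization, median centring, a filter below the 0.25 quantile, a robust fit with a variance trend, weights per array, a block for the replicate number, the mean over probe sets, and leaving out each sample.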

Additional observations from a re-analysis of the deposited data

How the results depend on the processing

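No called probe set of the 10 genes, and no called gene that the naming rule selects, changed sign under the alternatives run. Other genes counted in the lists were not followed singly. Of the 20 probe sets of the 10 genes past the threshold, 14 stayed past it under all 13 alternatives, among them those of SLC3A2 and SLC7A11. The count of 20 was 14 to 19 without 1 sample, and that of 5 genes was 4 to 5. Same-numbered samples of the groups deviated with correlations of -0.08, -0.12 and 0.07, so the numbers were not taken as pairs. With the replicate block these counts were 15 and 4, 4378 of all probe sets passed (2326 higher, 2052 lower) in place of 6940 (3355 higher, 3585 lower) and 1727 of all genes in place of 2788. For lysosomal and mitochondrial carriers, glutathione genes and other solute carriers the block gave 3, 1 and 26, in place of 7, 4 and 46. Without 1 sample the ranges were 4082 to 4805 probe sets, 1709 to 2017 genes, 3 to 5 other surface transporters, 3 to 4 lysosomal and mitochondrial carriers, 2 to 4 glutathione genes and 23 to 35 other solute carriers. A variance trend with a robust fit gave 10649 probe sets, 4231 genes, 7 other surface transporters in place of 4, and 8 glutathione genes. A pseudocount of 32 gave 10 mTORC1 genes in place of 6 and 8 glutathione genes, and quantile normalization and the filter on low values each gave 7 glutathione genes. Calls of small lists therefore vary with these settings, and the cause was not tested. With fewer samples the fits have fewer degrees of freedom. No scaling moved the median of all probe sets by more than 0.1 on the log2 scale. Dim probe sets, such as those of SLC43A1 and most of SLC6A9, limit what can be said of those genes.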
